A study of Mus musculus with 24 samples.

Results

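Fatty acid oxidation and the genes that peroxisome proliferator-activated receptors (PPARs) switch on are described here in endothelial cells sorted from the aorta and from skeletal muscle. The set holds 32 genes of the 18751 gene symbols on the array, and its members were chosen by function: carnitine shuttle, mitochondrial β-oxidation spiral, auxiliary isomerases and reductase, peroxisomal β-oxidation, electron transfer flavoprotein, PPAR receptors and other PPAR target genes. All 32 had at least 1 probe, 36 probes in all, and the probe with the highest mean signal stood for a gene with several.

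The study asked how galectin-3, a β-galactoside-binding lectin encoded by Lgals3, alters the endothelium in mice made diabetic by diet. Male mice homozygous for a deletion of coding exons of Lgals3 (KO, strain B6.Cg-Lgals3tm1Poi/J) and wild-type C57BL/6J mice (WT) were fed, from 8 weeks of age, a high-fat diet (HFD, 60% of calories from fat) or chow (12%) for 8 weeks. Aortae, taken from the root to the iliac bifurcation with adherent fat removed, and hind limb muscles of several mice of a group were pooled in each of 3 independent experiments, and live CD105+/CD45- cells were sorted. Their amplified RNA was read on 24 single-colour arrays, 1 array for each of 8 groups (tissue, strain and diet) in each experiment. All KO cells lacked the gene from conception in every cell type, and each array averaged a pool, so the spread between replicates is that between 3 pools and not between mice.

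Fatty acids enter mitochondria as carnitine esters and are shortened in turns of the spiral by chain-length-specific dehydrogenases, hydratases, hydroxyacyl-CoA dehydrogenases and thiolases. The dehydrogenases pass electrons through electron transfer flavoprotein to the respiratory chain, while peroxisomes begin the shortening of very long chains. PPARα and PPARδ are nuclear receptors that bind fatty acids, pair with the retinoid X receptor and raise transcription of many of these enzymes and of Pdk4, Angptl4 and Ucp3. Endothelium takes up fatty acids from blood, stores some in lipid droplets, hands most on to the tissue beneath and oxidises a part.

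Levels below are log2 signals from which each array's own 75th percentile was taken away, so a difference of 1 is a factor of 2, and levels of different probes are not compared with each other. That percentile lay between 3611 and 5938 intensity units in aorta and between 2390 and 4755 in muscle, and 61.6 to 69.3% of non-control spots in aorta and 59.5 to 75.7% in muscle were well above background. Of the 32 members, 30 were well above background on all 12 aortic arrays and 29 on all 12 muscle arrays. The exceptions were Ppard (10 of 12 aortic and 6 of 12 muscle arrays), Ppara (5 of 12 muscle arrays) and Ucp3 (1 of 12 in each tissue). Tests took in a probe only if 1 or more of the 4 groups of the tissue had it well above background throughout, which left 31 members in aorta (all but Ucp3) and 29 in muscle (not Ppara, Ppard or Ucp3).

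Of the defining markers of endothelium, 12 of 12 were well above background on every array of both tissues. Their mean level was 1.98 to 4.04 in aorta and 4.20 to 4.67 in muscle. Genes of other cells were present too. Of 10 white adipocyte genes, 8 were on all aortic arrays and Lep on none, and of 11 skeletal muscle fibre genes, all 11 were on every muscle array. The Lgals3 probe was higher in the KO-labelled array in 11 of 12 pairs of strains, but whether it lies in the deleted exons is not given in the sources used here, so it checks nothing. On a scale set by 10 strain-differing probes, where 0 is the WT mean and 1 the KO mean of experiments 2 and 3, the 4 chow arrays of experiment 1 lay near their labels (-0.08 to 0.06 for WT, 0.89 to 0.98 for KO). Its 4 HFD arrays lay between, at 0.20 to 0.51 when labelled WT and 0.48 to 0.51 when labelled KO. Strain therefore means the label here, and the fits that rest on strain were also run without experiment 1.

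PPARs paired with the retinoid X receptor bind a direct repeat of AGGTCA with 1 base between the repeats (DR1). To show what the members carry near their start sites, RefSeq windows of 300 bases (250 before to 50 after the start, build GRCm38.p6) were searched on both strands. Of the 32 members, 26 had a window. Acaa2, Angptl4, Cpt1b, Crat, Decr1 and Hsd17b4 had none. No member window held the motif exactly or with up to 1 mismatch, against 0.0396% and 0.554% of all 32851 windows. With up to 2 mismatches, the spacer base left out of the count, 5 of 26 member windows (19.2%) held a match, against 3.86% of all windows. They were those of Echs1 (first base at -83 from the start), Etfa (-77, opposite strand), Plin2 (-225, opposite strand), Ucp3 (-51) and Slc25a20 (just after the start, so not printed). A match is a description of letters and says nothing of binding, and the absence of one says only that these letters are not in the window. The 250 bases before the start are shown for 4 of the 5 matching genes, with the matched stretch in capitals, and for Acadm, the member that passed the diet test, which had no match. They are chr7:140116422-140116671 for Echs1, chr9:55512244-55512493 for Etfa, chr4:86670060-86670309 for Plin2, chr3:153944644-153944893 for Acadm (all minus strand) and chr7:100472741-100472990 for Ucp3 (plus strand), each written 5′ to 3′ along the gene.
Echs1: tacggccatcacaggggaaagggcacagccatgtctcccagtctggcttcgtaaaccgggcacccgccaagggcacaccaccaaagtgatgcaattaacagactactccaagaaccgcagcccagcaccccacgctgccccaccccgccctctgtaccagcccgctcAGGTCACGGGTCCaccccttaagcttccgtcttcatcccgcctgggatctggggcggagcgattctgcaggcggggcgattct
Etfa: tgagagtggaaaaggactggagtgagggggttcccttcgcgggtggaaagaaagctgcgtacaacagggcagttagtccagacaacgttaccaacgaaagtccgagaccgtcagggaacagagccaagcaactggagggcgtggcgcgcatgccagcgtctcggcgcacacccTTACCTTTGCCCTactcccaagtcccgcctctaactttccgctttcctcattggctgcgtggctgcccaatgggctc
Plin2: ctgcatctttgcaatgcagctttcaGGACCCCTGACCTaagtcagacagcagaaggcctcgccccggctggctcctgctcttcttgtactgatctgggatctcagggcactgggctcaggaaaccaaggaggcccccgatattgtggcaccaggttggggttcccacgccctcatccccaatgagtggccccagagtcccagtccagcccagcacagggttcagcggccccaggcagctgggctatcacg
Ucp3: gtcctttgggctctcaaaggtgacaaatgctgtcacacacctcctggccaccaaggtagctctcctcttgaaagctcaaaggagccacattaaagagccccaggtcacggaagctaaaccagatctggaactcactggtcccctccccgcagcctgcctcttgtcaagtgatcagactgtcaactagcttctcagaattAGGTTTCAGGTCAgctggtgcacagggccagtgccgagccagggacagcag
Acadm: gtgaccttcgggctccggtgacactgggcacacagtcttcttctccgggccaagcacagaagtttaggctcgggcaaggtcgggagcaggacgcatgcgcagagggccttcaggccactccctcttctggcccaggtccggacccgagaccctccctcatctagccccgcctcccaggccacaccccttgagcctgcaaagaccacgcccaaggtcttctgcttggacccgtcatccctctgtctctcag

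The first question was what 8 weeks of HFD did to these genes. Averaged over both tissues and strains, Acadm, the medium-chain acyl-CoA dehydrogenase that opens the spiral for medium-length chains, fell by 0.49 on the log2 scale (SE 0.11, adjusted p = 0.042 in limma), and it was the only member past an adjusted p of 0.05. It was lower on HFD in 12 of 12 pairs, a pair being the HFD and chow arrays of 1 strain, tissue and experiment. The fit took the 12 pairs as independent, but aorta and muscle arrays of 1 experiment may share mice. The adjusted p and the 12 of 12 may therefore overstate the evidence. Of the 31 members tested, 8 were lower and 1 higher at an unadjusted p under 0.05. Over all 27346 probes, 22.5% reached that unadjusted threshold and 2.81% the adjusted one. The median difference of the members was -0.12 (8 higher, 23 lower), against a median near 0 for all probes.

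In WT aorta, Acadm levels in experiments 1, 2 and 3 were 2.79, 2.79 and 3.34 on chow and 2.69, 2.26 and 2.81 on HFD. In KO aorta they were 3.95, 3.00 and 3.95 on chow and 2.74, 2.59 and 3.04 on HFD. Each HFD array lay below the chow array of its own experiment, although the chow and HFD ranges overlapped in both strains. In WT muscle Acadm was 2.87, 2.68 and 3.04 on chow and 2.37, 2.22 and 2.72 on HFD, and in KO muscle 2.86, 3.04 and 3.24 against 2.41, 2.57 and 3.19. The ranges overlapped there too, and the KO muscle pair of experiment 3 differed least. Leaving out any 1 experiment kept the size (fell by 0.46 without experiment 1, 0.51 without experiment 2 and 0.52 without experiment 3) but ended the call, with adjusted p of 0.251, 0.235 and 0.160. Without the block that pairs HFD with chow, the adjusted p was 0.0838. White adipocyte genes, whose values follow, were lower on HFD in all 6 aortic and in 5 of 6 muscle pairs.

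Other members with large differences, named after their values were seen, were PPAR targets and the receptor itself. Ehhadh, the bifunctional enzyme of peroxisomal β-oxidation, differed by -0.92 (SE 0.23, adjusted p = 0.0555, lower in 9 of 12 pairs). Acot1, a cytosolic acyl-CoA thioesterase, differed by -0.82 (SE 0.23, adjusted p = 0.0816, lower in 10 of 12 pairs). Ppara differed by -1.05 (SE 0.34, adjusted p = 0.105), but most of its muscle arrays were not well above background. Pdk4, the kinase that shuts off pyruvate dehydrogenase and spares glucose, differed by -0.72 (SE 0.21, adjusted p = 0.0877, lower in 11 of 12 pairs). These 4 did not pass the test. Ppard differed by 0.50 (SE 0.23, adjusted p = 0.239) and Angptl4, a secreted inhibitor of lipoprotein lipase, by 0.17 (SE 0.13, adjusted p = 0.481). Of the PPAR targets named here, only Angptl4 had a positive estimate, and its direction is not settled (higher in 8 of 12 pairs).

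**Figure D1:**
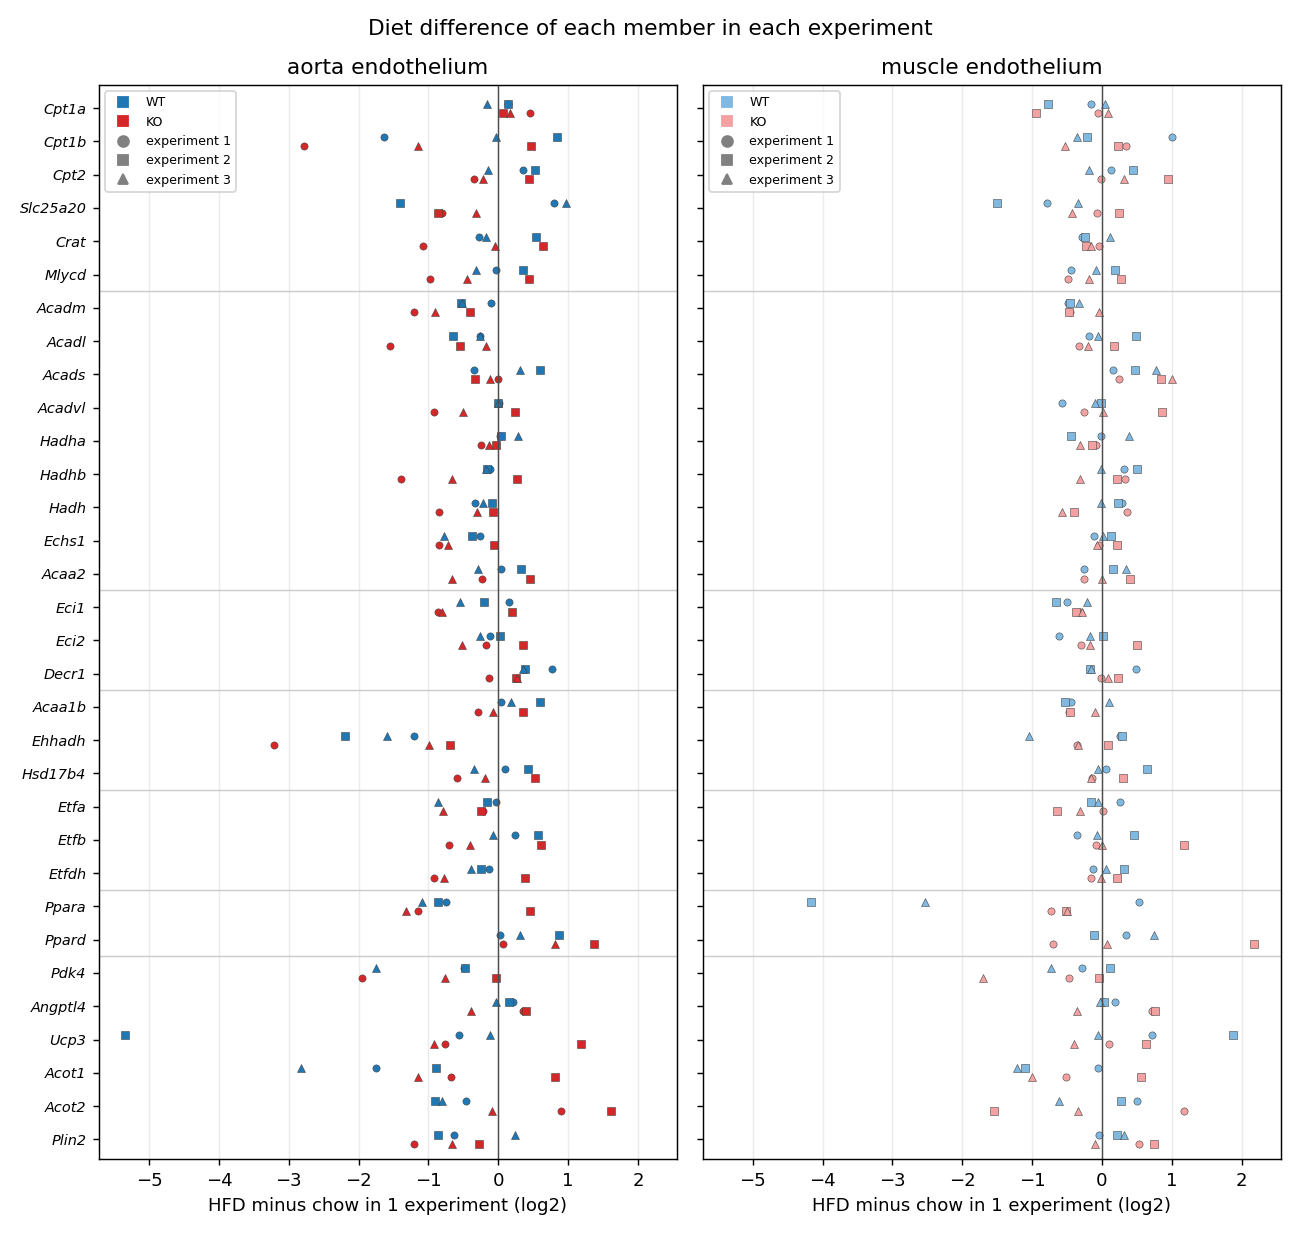
HFD minus chow difference (log2, horizontal axis) of each member (rows, lines part the roles) in aorta and muscle (panels), with colour for strain and symbol for the 3 experiments. Acadm lies left of 0 in all 12 pairs, Angptl4 right of it in 8 and Acads in 9 of 12, and Ucp3 was well above background on 1 of 12 arrays in each tissue.

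**Figure D2:**
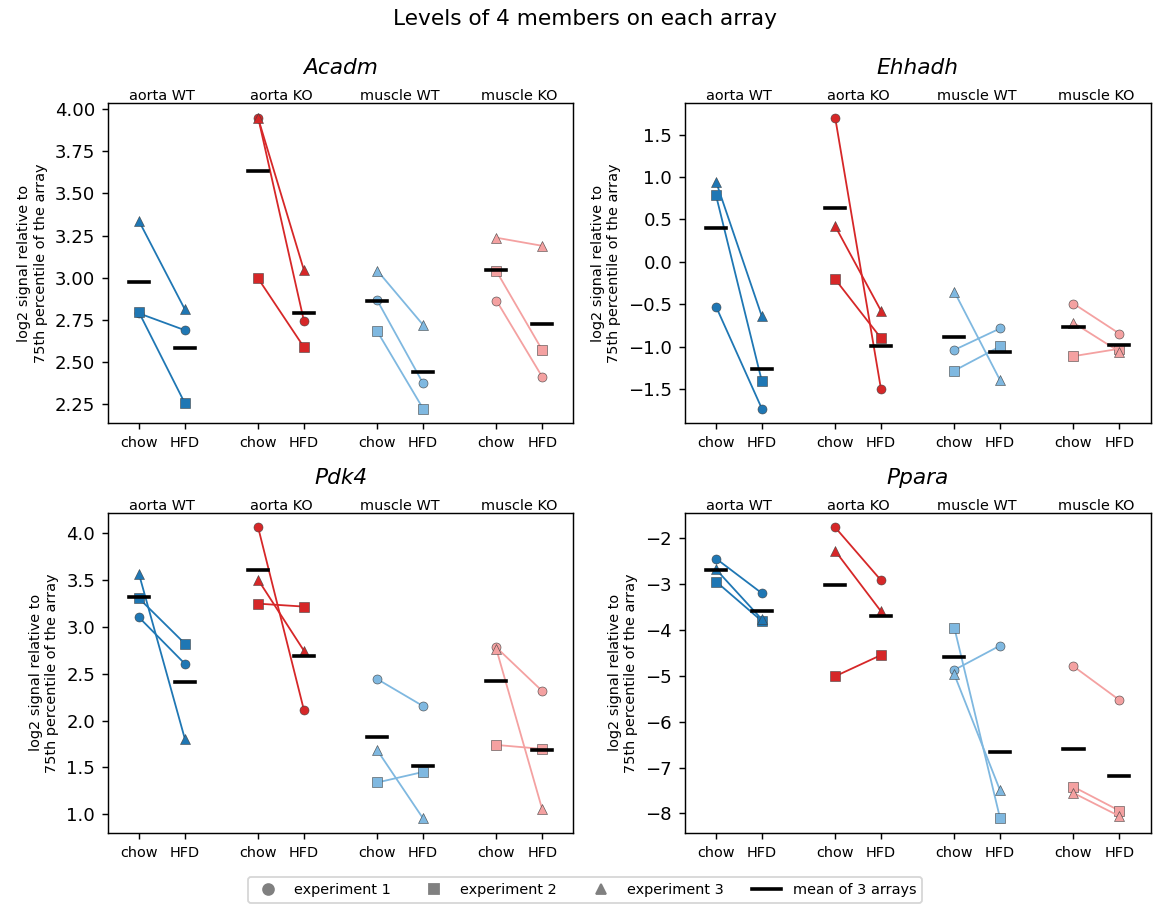
Levels (log2 units above or below the 75th percentile of the array, vertical axis) of Acadm, Ehhadh, Pdk4 and Ppara on all 24 arrays by tissue, strain and diet, with a line joining the arrays of 1 experiment and a black bar for the mean of 3. Every Acadm line falls, the Ehhadh lines fall in all 6 aortic pairs, and Ppara in muscle was well above background on only 5 of 12 arrays.

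By role, the median difference averaged over tissues and strains was -0.12 for the 6 carnitine shuttle genes (1 higher, 5 lower), -0.10 for the 9 spiral genes (2 higher, 7 lower), -0.12 for the isomerases and reductase, -0.09 for peroxisomal enzymes, -0.15 for electron transfer flavoprotein and -0.15 for the tested targets outside the spiral (1 higher, 4 lower). The dehydrogenases for different chain lengths lay on both sides of 0. Acads, the short-chain dehydrogenase, differed by 0.30 (SE 0.12, adjusted p = 0.183, higher in 9 of 12 pairs), and its long-chain and very-long-chain counterparts Acadl and Acadvl by -0.29 (SE 0.14) and -0.10 (SE 0.14). Eci1, which shifts double bonds of unsaturated acids into place for the spiral, differed by -0.36 (SE 0.12, adjusted p = 0.125, lower in 10 of 12 pairs). The subunits of the trifunctional protein, Hadha and Hadhb, differed by -0.05 and -0.10, each with an SE at least as large. Cpt1a, the outer-membrane carnitine palmitoyltransferase that controls entry, differed by -0.08 (SE 0.13).

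Within single groups no member passed an adjusted p of 0.05, with or without experiment 1. In WT aorta, 2 of 31 members (Acot1 and Ehhadh, both lower) had an unadjusted p under 0.05, against 5.76% of all probes. Acot1 was 2.38, 1.00 and 1.70 on chow and 0.64, 0.10 and -1.12 on HFD in experiments 1, 2 and 3, groups that did not overlap, with a difference of -1.82 (SE 0.50, adjusted p = 0.601 in limma). Ehhadh was -0.53, 0.78 and 0.95 on chow and -1.73, -1.41 and -0.64 on HFD, again without overlap, with a difference of -1.66 (SE 0.51, adjusted p = 0.685). Both enzymes are known PPARα targets, but a part of Ppara in their differences was not tested. Ppara itself was -2.45, -2.95 and -2.68 on chow and -3.20, -3.81 and -3.77 on HFD, a difference of -0.90 (SE 0.39, adjusted p = 0.862). Pdk4 was 3.10, 3.30 and 3.56 on chow and 2.61, 2.82 and 1.81 on HFD, a difference of -0.91 (SE 0.45, adjusted p = 0.891). For both genes every chow array was above every HFD array, yet neither passed the test. Decr1, the reductase for polyunsaturated acids, was higher in all 3 pairs, by 0.50 on average (SE 0.25, adjusted p = 0.891). Over all members 12 of 31 were lower and 4 higher in all 3 pairs, against 12.4% and 14.4% of all probes. Chow and HFD groups did not overlap for 5 members, Acot1, Ehhadh, Ppara, Pdk4 and Acaa1b, the last a peroxisomal thiolase that lay higher on HFD, against 7.24% of all probes. Ppard differed by 0.40 and Angptl4 by 0.11.

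In KO aorta, 2 of 31 members (Ehhadh and Acadm, both lower) had an unadjusted p under 0.05, against 11.2% of all probes. Ehhadh was 1.70, -0.20 and 0.42 on chow and -1.50, -0.90 and -0.58 on HFD, a difference of -1.63 (SE 0.51, adjusted p = 0.392), and Acadm differed by -0.84 (SE 0.27, adjusted p = 0.397). Without experiment 1, whose KO HFD array lay between the strains, Ehhadh differed by -0.85 and Acadm by -0.66, and the member median of -0.34 became -0.17. With all experiments 26 members had a negative and 5 a positive difference, and all 9 spiral genes were negative with a median of -0.41. The member median was -0.81 in experiment 1 (26 of 31 lower), 0.27 in experiment 2 (11 of 31 lower) and -0.45 in experiment 3 (28 of 31 lower), so experiment 2 ran the other way. Its HFD array had the lowest 75th percentile of the aortic arrays (3611). Medians of all probes in single pairs were not computed, so shifts of whole arrays cannot be told apart. Acadl, the long-chain dehydrogenase, and Plin2, which coats lipid droplets, were lower in all 3 pairs (-0.76 and -0.71 on average), and neither passed the test. Pdk4 was 4.06, 3.25 and 3.50 on chow and 2.11, 3.22 and 2.75 on HFD, so that experiment 2 showed almost no difference. Ppard differed by 0.75, Ppara by -0.67 and Angptl4 by 0.12.

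White adipocyte genes were lower on HFD in all 6 aortic pairs. Their mean level was -0.39 to 0.53 on chow and -3.11 to -1.72 on HFD in WT aorta, and 0.01 to 1.96 on chow and -2.26 to -1.46 on HFD in KO aorta. For experiments 1, 2 and 3, HFD minus chow stood at -2.72, -2.45 and -2.25 in WT mice and at -4.22, -1.70 and -1.90 in KO mice. Brown adipocyte genes differed by -1.39, 0.39 and 0.82 in WT and -1.82, 0.77 and -0.92 in KO, and endothelial genes by -0.95, -1.22 and 0.61 in WT and -1.62, -1.10 and -0.12 in KO. In KO aorta the member medians of the 3 pairs had the signs of the brown adipocyte differences. Cardiac muscle genes (-0.76, 1.44 and -0.71) and pericyte genes (-0.08, 0.51 and -0.10) had the same signs there. In WT aorta the member medians (-0.10, -0.01 and -0.21) had the signs of none of these lists. White adipocyte, skeletal muscle fibre and macrophage genes were lower in all 3 WT aortic pairs, as were the member medians. Smooth muscle genes were higher in all 6 aortic pairs (0.02, 0.71 and 0.32 in WT, 0.31, 0.84 and 0.47 in KO). Aortic fibroblast genes differed by 0.07, 1.30 and -0.0039 in WT and 0.69, 0.95 and 0.20 in KO. In muscle, where the sort against CD45 should remove them, macrophage genes differed by 1.20, 2.80 and 2.24 in WT and 2.37, 2.92 and -2.31 in KO (3 of 8 were well above background on all arrays). Fibroblast genes were higher on HFD in all 6 muscle pairs, by 0.34 to 2.10, and pericyte genes lower in all 6, at -0.95 to -0.19. The muscle white adipocyte differences were 0.86, -0.45 and -0.51 in WT and -0.99, -0.29 and -1.70 in KO, while endothelial genes differed by -0.16 to 0.03. The part of these cells in the member differences was not tested. In such bulk samples fewer cells of a type and less RNA per cell cannot be told apart.

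**Figure D3:**
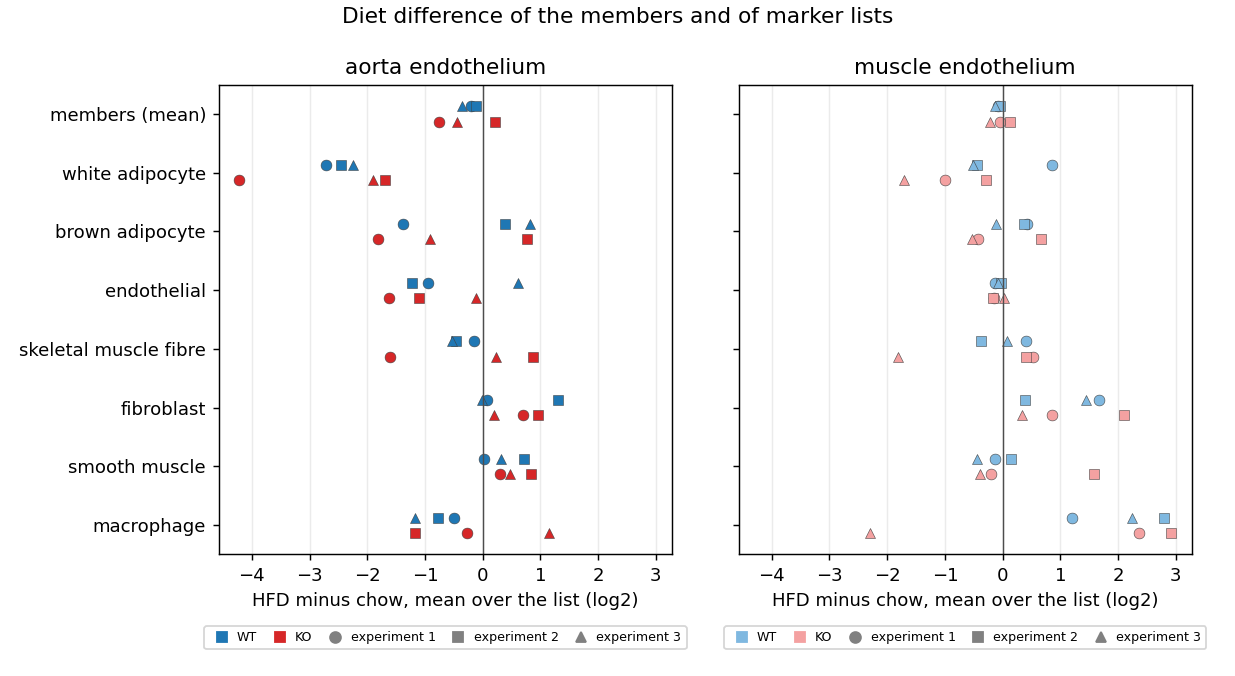
HFD minus chow difference (log2, horizontal axis) of the mean over the members and over each cell type marker list (rows) in aorta and muscle (panels), with colour for strain and symbol for experiment. White adipocyte genes lie between -4.22 and -1.70 in all 6 aortic pairs, where the member means run from -0.76 to 0.22.

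In WT muscle, 1 of 29 members had an unadjusted p under 0.05, against 12.1% of all probes. It was Slc25a20, the carnitine-acylcarnitine carrier of the inner membrane, at -1.18, -1.05 and -0.82 on chow and -1.97, -2.56 and -1.16 on HFD. The groups overlapped slightly, and the difference was -0.88 (SE 0.28, adjusted p = 0.306). Eci1 and Acadm were lower in all 3 pairs (-0.45 and -0.42 on average), and Acot1 differed by -0.79. Acads was higher in all 3 pairs, by 0.47. In KO muscle 1 of 29 members had an unadjusted p under 0.05, against 8.5% of all probes. This was Acads, at -0.79, -1.13 and -2.37 on chow and -0.54, -0.27 and -1.37 on HFD, higher by 0.70 on average (SE 0.24, adjusted p = 0.541) although the groups overlapped. Eci1, Acadm and Acaa1b were lower in all 3 pairs (-0.32, -0.32 and -0.34). Pdk4 differed by -0.30 in WT and -0.74 in KO muscle and Angptl4 by 0.06 and 0.37. The member median was 0.01 in WT muscle and -0.09 in KO muscle. Experiment 2 again stood apart there, with 17 of 29 members higher in WT (median 0.11) and 19 of 29 in KO (median 0.22). Its KO HFD array had the lowest 75th percentile of the muscle arrays (2390). The median of all probes in that pair was not computed, so a shift of the whole array cannot be told apart.

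The second question was whether loss of galectin-3 changed the response to diet, tested as the HFD minus chow difference in KO minus that in WT. No member passed an adjusted p of 0.05 in either tissue. In aorta 1 of 31 members had an unadjusted p under 0.05, against 2.59% of all probes. Acot2, the mitochondrial counterpart of Acot1, was the one. The genes are close paralogs, and whether their probes share signal was not tested. Acot2 was at -3.47, -2.10 and -2.77 on chow and -3.93, -3.00 and -3.58 on HFD in WT, and at -3.89, -4.98 and -2.67 on chow and -2.99, -3.36 and -2.76 on HFD in KO. The response was lower in all 3 WT pairs and higher in 2 of 3 KO pairs, and differed by 1.53 (SE 0.51, adjusted p = 1.00). Without experiment 1 it differed by 1.62 (SE 0.75, adjusted p = 1.00).

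Acot1 had a response 1.48 higher in KO than in WT (SE 0.71), and the response differed by -0.87 for Cpt1b, the muscle-type carnitine palmitoyltransferase, and by -0.38 for Decr1. Cpt1b responded lower in KO in all 3 experiments, and its second probe differed by -1.89 (SE 1.43) against -0.87 (SE 0.97), although in WT aorta alone the 2 probes had opposite signs (0.29 against -0.28). Without experiment 1 the response differed by 1.69 for Acot1, -0.74 for Cpt1b and -0.11 for Decr1. For the receptors and targets the response differed by 0.36 for Ppard and 0.23 for Ppara, and by under 0.01 in size for Angptl4 and Pdk4. Without experiment 1 these were 0.51, 0.55, -0.063 and 0.73. In muscle no member had an unadjusted p under 0.05, against 4.12% of all probes. The response differed by 0.43 for Acadvl, -0.33 for Etfa, 0.35 for Etfb, 0.24 for Acads, -0.44 for Pdk4 and 0.31 for Angptl4, and without experiment 1 by 0.49, -0.38, 0.40, 0.31, -0.57 and 0.20 in the same order.

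Strains were also compared at each diet. No member passed an adjusted p of 0.05, none had an unadjusted p under 0.05 and none had KO and WT groups that did not overlap, in any of the 4 comparisons with all experiments. On chow in aorta 1 member had an unadjusted p under 0.05 with any 1 experiment left out. With the experiment number as a block 2 did, and none of these passed an adjusted p of 0.05. Shares of all probes in those fits were not computed, so these counts are not read as a result. With all experiments and no block, 4.39% of all probes on chow and 1.14% on HFD in aorta had an unadjusted p under 0.05. In muscle 2.42% on chow and 3.15% on HFD did. Groups did not overlap for 6.19%, 4.2%, 7.89% and 5.05% of probes in the same order. The member medians of KO minus WT were 0.27 on chow and 0.06 on HFD in aorta, and 0.05 and 0.08 in muscle. On chow in aorta the median was 0.076 without experiment 1 and 0.44 without experiment 2. In aorta on chow Pdk4 differed by 0.28, Ppara by -0.33, Angptl4 by -0.12 and Ppard by 0.11, and on HFD by 0.28, -0.09, -0.12 and 0.47. In muscle Pdk4 differed by 0.61 on chow and 0.17 on HFD and Angptl4 by -0.18 and 0.13. Without experiment 1, no member was called in any comparison of strains or of their responses.

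The response to diet was then compared between tissues. No member passed an adjusted p of 0.05, and 4 of 31 had an unadjusted p under 0.05, against 9.22% of all probes. Ehhadh responded lower in aorta than in muscle in 6 of 6 pairs, with a mean of -1.46 (SE 0.45, adjusted p = 0.368). In muscle its chow arrays ran from -1.28 to -0.35 and its HFD arrays from -1.40 to -0.79, while the aortic HFD arrays ran from -1.73 to -0.58 and the aortic chow arrays reached 1.70. Plin2 also responded lower in 6 of 6 pairs, with a mean of -0.84 (SE 0.28, adjusted p = 0.392), with muscle HFD arrays at 3.92 to 4.82 and aortic HFD arrays at 3.45 to 4.29. Echs1, the short-chain enoyl-CoA hydratase, did so in 6 of 6 pairs (-0.53, SE 0.22, adjusted p = 0.485) and Acads in 5 of 6 (-0.57). Pdk4 differed by -0.39, Angptl4 by -0.10, Ppara by 0.53 and Ppard by 0.15.

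More members passed the test between the tissues themselves than for diet. Over all 12 arrays of each, with strain, diet and experiment balanced, 10 of 31 members differed at an adjusted p under 0.05, 8 higher and 2 lower in aorta. Of the 8, Ppara entered the test only through its aortic arrays. Among all probes 46.2% differed, 16% higher and 30.2% lower. All probes together had a median of -0.27 in aorta against muscle and the members 0.08. Relative to that shift, 26 of 31 members lay higher in aorta. The authors' deposited table adds a larger offset to aorta (near 12.24) than to muscle (near 11.97). On that scale the median of all probes was -0.01, and 12 members were called, all higher in aorta. Over all probes 10051 were called on that scale, against 12626 (46.2%) here, so the 12 are not read as a result about the members. There 58.9% of called probes were higher, against 34.6% here and 40.7% after quantile normalization. Directions between tissues are therefore set by the scaling for members with small differences, and those named next are the ones called here.

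Ppara levels ran from -5.01 to -1.77 in aorta (median -3.07) and from -8.11 to -3.95 in muscle (median -6.47), higher in aorta in 12 of 12 pairs. Only 5 of 12 muscle arrays were well above background, so that the size of the difference is not measured. It was 3.00 as computed and 1.84 with normexp, and it is given here with no test. Acot1 was also higher in aorta in 12 of 12 pairs, running from -1.12 to 2.38 in aorta (median 0.98) and from -2.11 to 0.61 in muscle (median -0.63), a difference of 1.55 (SE 0.33, adjusted p = 0.000747).

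Decr1 did not overlap between tissues. It ran from -2.07 to -0.72 in aorta (median -1.09) and from -3.09 to -2.28 in muscle (median -2.59), a difference of 1.36 (SE 0.18, adjusted p = 5.54e-06). Its second probe was well above background on only 8 of 24 arrays and is not used. Pdk4 ran from 1.81 to 4.06 in aorta (median 3.16) and from 0.96 to 2.78 in muscle (median 1.72), a difference of 1.14 (SE 0.21, adjusted p = 0.000271, higher in 11 of 12 pairs). Cpt2, the inner-membrane carnitine palmitoyltransferase, ran from 2.89 to 3.93 in aorta (median 3.51) and from 2.20 to 3.49 in muscle (median 2.55), a difference of 0.83 (SE 0.16, adjusted p = 0.00036, higher in 12 of 12 pairs). Among these 3 genes some arrays of the tissues overlapped for Pdk4 and Cpt2.

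Smaller differences were found for Ehhadh (0.62, SE 0.23, adjusted p = 0.032), Etfa, a subunit of electron transfer flavoprotein (0.58, SE 0.18, adjusted p = 0.0147), and Hadh, which oxidises hydroxyacyl-CoA (0.39, SE 0.15, adjusted p = 0.0468), all higher in aorta. For Ehhadh the HFD arrays of the tissues overlapped, and the highest levels were those of aorta on chow. The 2 lower members were Acads (fell by 0.68 from muscle to aorta, SE 0.20, adjusted p = 0.00983) and Cpt1a (fell by 0.46, SE 0.17, adjusted p = 0.0362), each lower in 11 of 12 pairs. On the deposited scale neither was called, and Acads differed by -0.41 (adjusted p = 0.12). The remaining members included Angptl4 (0.20, SE 0.15, adjusted p = 0.284), Ppard (0.28, SE 0.25, adjusted p = 0.372) and Slc25a20 (-0.55, adjusted p = 0.0638). Angptl4 was called on the deposited scale (0.46, adjusted p = 0.019).

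**Figure D4:**
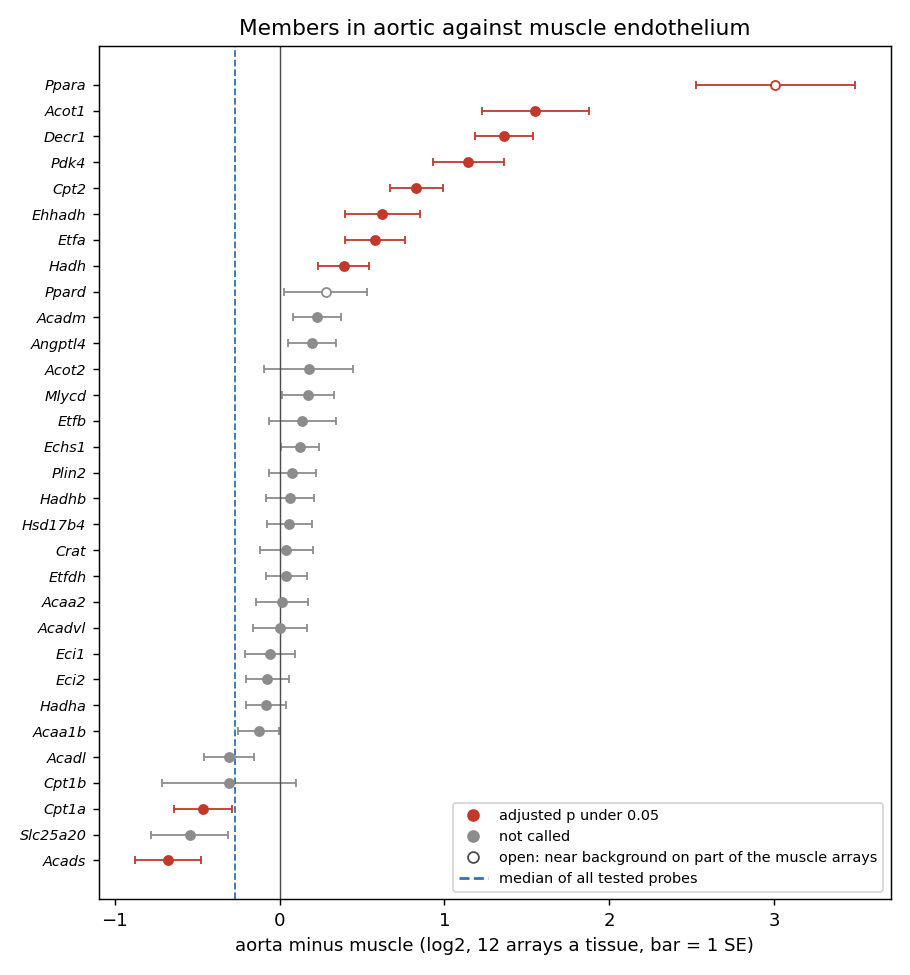
Difference of aorta minus muscle (log2, horizontal axis) for the 31 tested members in order of size, with red points for an adjusted p under 0.05, bars for 1 SE, open points for the 2 members near background on part of the muscle arrays (Ppara and Ppard) and a dashed line at the median of all tested probes, -0.27. Of the filled points, Acot1 lies farthest right at 1.55 and Acads farthest left at -0.68.

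Markers of other cells differed between the tissues as well. Skeletal muscle fibre genes had a mean level of -4.03 to -2.08 in aorta, where 5 of 11 were well above background on all arrays, and of 0.25 to 3.39 in muscle. Brown adipocyte genes lay at -1.25 to 0.98 in aorta (6 of 9 on all arrays) and at -4.79 to -2.56 in muscle (3 of 9, with Elovl3 on none). Cardiac muscle genes lay at -2.51 to 0.71 in aorta and -4.26 to -2.55 in muscle. Fibroblast genes lay at 4.25 to 5.87 in aorta, where 7 of 7 were on all arrays, and at -0.51 to 3.35 in muscle, without overlap. Pericyte genes lay at 1.48 to 2.49 in aorta and 2.31 to 3.70 in muscle (6 of 6 on all arrays of both). The part of these cells in the tissue differences was not tested. Each slide held 1 tissue of 1 experiment, so that slide and tissue cannot be told apart within an experiment. With slide as a random block 7 members were called, Cpt2, Decr1, Etfa, Ppara, Pdk4 and Acot1 higher and Acads lower. Cpt2, Decr1, Pdk4 and Acot1 were called with any 1 experiment left out. Ppara was called each time too. With all experiments it entered the test only through its aortic arrays, so its calls in these fits are no support. The other calls were Ehhadh alone without experiment 1, Etfa alone without experiment 2, and Etfa and Acads without experiment 3, so Hadh and Cpt1a were lost each time.

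Further genes of the pathway were followed in 2 lists, other fatty acid oxidation and ketone body genes (28 of 29 tested) and other PPAR partners and target genes (25 of 27 tested). Averaged over tissues and strains, HFD changed none of them at an adjusted p under 0.05 in limma. At an unadjusted p under 0.05, 2 of 28 were higher and 4 lower in the first list, and 2 of 25 higher and 6 lower in the second, beside 22.5% of all probes. Between tissues 13 of 28 differed (6 higher, 7 lower in aorta) and 15 of 25 (5 higher, 10 lower), beside 46.2% of all probes (16% higher, 30.2% lower). Among those of largest difference were Pecr, a peroxisomal enoyl-CoA reductase (2.58, SE 0.27), the droplet protein Plin4 (2.18, SE 0.46, but 1.80 and an adjusted p of 0.063 without experiment 2), the uncoupling protein Ucp2 (fell by 2.14, SE 0.32) and Cpt1c (1.92, SE 0.21). Vnn1, a pantetheinase and PPARα target, was higher in aorta in 12 of 12 pairs (median -0.94 in aorta and -5.49 in muscle), but only 6 of 12 muscle arrays were well above background, so its size is not measured.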

How the data were processed

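The 24 arrays were single-colour Agilent Whole Mouse Genome arrays hybridised with amplified, Cy3-labelled RNA. The deposited files hold per-spot intensity values as written by Agilent Feature Extraction (version 10.5.1.1 per the file headers, 9.1 per the labels), background-subtracted by that software and not normalized between arrays. The authors' deposited log2 values matched the log2 processed signal minus the array's 75th percentile, plus an offset for each array. That offset was 12.23 to 12.25 in aorta (median 12.24) and 11.95 to 12.01 in muscle (median 11.97). On every array 100% of values well above background lay within 0.01 of it. That scale thus differs by tissue.

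Control spots and outlier spots were left out, processed signals were taken as log2 minus the 75th percentile of each array, and spots of a probe were averaged. Of 41174 probes, 27484 matched a gene symbol through their accession in RefSeq (GRCm38.p6, used for names and promoters), and 18751 symbols resulted. For 506 probes the accession differed between the grid versions of the files, for 5 of them with another symbol. The software's mark for well above background was used, and a probe carried it on an array if a share of 0.5 or more of its spots did.

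Linear models were fitted in limma 3.58.1 (R 4.3.3) over all tested probes of a tissue, or of both, with the empirical Bayes moderated test and Benjamini-Hochberg adjustment over all probes at 0.05. Diet comparisons carried the pair of HFD and chow arrays as a block, after the study's own ratios within each experiment, and comparisons of strains at 1 diet had none. Named were the called members, or else those of smallest p with the same direction in every pair, and always Ppara, Ppard, Pdk4 and Angptl4, plus the called pathway genes of largest change, of which 1 is not reported here. The members, lists and rules were chosen with earlier results of these data known. Alternatives were quantile normalization, normexp on the median signal and median background (offset 50), the deposited table, other filters on dim probes, the mean of a gene's probes, blocks for slide and experiment, each experiment left out and the methods' t-test. The scripts were tested on simulated data. The number of arrays limits precision.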

Additional observations from a re-analysis of the deposited data

How the results depend on the processing

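Of the values computed for named members under the alternatives, 875 kept their direction and side of the threshold, 14 lost and 4 gained a call, and 23 reversed. Averaged over tissues and strains, 1 member was called for diet. Normexp background correction gave 2 (Acadm and Ehhadh), requiring every array to be well above background and slide as a block gave 4 each (Acadm, Ehhadh, Pdk4 and Acot1), and no filter on dim probes gave 0, as did leaving out any 1 experiment (0 to 0). The experiment number marks arrays of 1 shared experiment in the labels and was the replicate block of the diet comparisons. Same-numbered HFD and chow arrays of a strain correlated at 0.009 to 0.45 in their deviations, and KO and WT arrays of a diet at 0.066 to 0.58. Same-numbered aorta and muscle arrays of a strain and diet correlated at 0.069 to 0.40, and they may share mice. Without the replicate block 1 member was called for diet (Ehhadh), and Acadm, at -0.49, had an adjusted p of 0.0838. With it 10 members were called between tissues and 0 between strains. Leaving out 1 experiment gave 6 to 7 members between tissues in place of 10. Over all probes it gave 8560 to 9836 calls in place of 12626. These member counts include Ppara, which with all experiments entered the test only through its aortic arrays. At an unadjusted 0.05 the methods' t-test gave 4 of 31 members in WT aorta, 1 of 29 in WT muscle and 1 of 29 in KO muscle. The share of all probes under that t-test was not computed, so these counts are not read as a result. After Benjamini-Hochberg adjustment it gave 0.

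Over all probes, 768 were called for diet, against 1176 with quantile normalization, 1358 with normexp, 203 with no filter, 1386 with the stricter filter and 1842 with slide as a block, and 14, 0 and 9 without experiments 1, 2 and 3. Between tissues 12626 were called, and 7715 with slide as a random block. Among the small differences of the always-named genes, signs turned in these cases. KO minus WT response in aorta was 0.046 (quantile), 0.024 (normexp) and 0.0051 (deposited table) for Pdk4 and -0.034 (normexp) for Angptl4. KO minus WT was -0.040 for Ppard on chow in aorta (quantile), and -0.049 (quantile) and -0.014 (normexp) for Angptl4 on HFD in muscle. With normexp, Ppara differed by -0.079 between the responses of the tissues, and Ppard by -0.037 between the tissues.

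Leaving out 1 experiment at a time moved the Angptl4 diet difference in KO aorta from -0.022 to 0.37 and the KO minus WT response in aorta from -0.31 to 0.55 for Ppara, from -0.11 to 0.19 for Angptl4 and from -0.50 to 0.73 for Pdk4. KO minus WT in aorta ran on chow from -0.059 to 0.45 for Pdk4, -0.83 to 0.54 for Ppara, -0.28 to 0.076 for Angptl4 and -0.017 to 0.18 for Ppard, and on HFD from -0.050 to 0.67 for Pdk4, -0.27 to 0.013 for Angptl4 and -0.28 to 0.23 for Ppara. Angptl4 on HFD in muscle ran from -0.069 to 0.36, and the Ppara response of aorta minus muscle from -0.27 to 1.23. The causes were not tested. The 3 arrays a group limit precision, and Ppara, Ppard and Ucp3 were near background on part of the arrays.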
